A study of Mus musculus with 7 samples.

Results

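The MHC class I presentation genes were 10 genes taken by name from a count table of 55414 mouse genes, namely the heavy chain genes H2-K1 and H2-D1, the light chain gene B2m, the peptide transport and loading genes Tap1, Tap2 and Tapbp, the immunoproteasome genes Psmb8, Psmb9 and Psmb10, and the regulator gene Nlrc5. All 10 were found, and all 10 were abundant enough to be tested. The values came from polyadenylated RNA of whole spleen, in 4 libraries labelled Fpr2KO and 3 wild-type (WT) libraries whose genotype is given as C57BL/6N. Fpr2KO stands for a knockout of Fpr2, the gene of a formyl peptide receptor of myeloid cells, and the labels give no treatment, age, sex or strain background for it. Whether each library had its own animal is not said in the labels. A p-value therefore covers library-to-library spread only, and that spread may be technical. No batch is named in the labels.

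MHC class I molecules display short peptides from inside the cell to CD8 T cells and to NK cells. The immunoproteasome, a form of the proteasome with exchanged catalytic subunits, cuts proteins into peptides. The transporter formed by Tap1 and Tap2 carries these into the endoplasmic reticulum, where tapasin (Tapbp) helps to load them onto a heavy chain paired with beta-2 microglobulin (B2m). Nlrc5 is the transactivator of class I promoters, and interferons induce much of the pathway. Nearly all nucleated cells express the heavy chain and light chain genes, with high levels in the lymphocytes that fill the spleen.

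In spleens lacking Fpr2 the class I presentation genes had nearly the same transcript levels as in WT spleens. In edgeR's quasi-likelihood test with Benjamini-Hochberg adjustment over all genes, 0 of the 10 passed an adjusted p of 0.05, against 6 of 16089 tested genes, or 0.0373%. At an unadjusted p under 0.05 there were also 0 of 10, against 4.98% of all tested genes, and DESeq2 called 0 of 10. The groups overlapped for all 10 genes, whereas they did not overlap for 5.91% of all tested genes, 2.73% with Fpr2KO higher and 3.18% with Fpr2KO lower. Fitted log2 fold changes (Fpr2KO over WT) ran from -0.07 for Tapbp to 0.11 for B2m. Of the 10, 6 had a positive and 4 a negative fitted value, and 48.6% of all tested genes had a positive one. Their median was 0.007, beside -0.0049 for all tested genes. The 95% intervals of the 10 fold changes together reached from 0.803-fold to 1.32-fold, so a larger difference in any single gene lay outside its own interval.

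Total counts ran from 16424799 to 18692809 per library in Fpr2KO and from 14968605 to 16600334 in WT. CPM below is a gene's read count scaled to library size after TMM scaling, which corrects for a few abundant transcripts that take up reads. Fpr2 itself had 0 reads in each of the 4 Fpr2KO libraries, against 537, 479 and 477 reads in the WT libraries (edgeR adjusted p = 2.27e-05). All 6 called genes were lower in Fpr2KO and none was a class I presentation gene. Markers of B cells, the most abundant lymphocytes of the spleen, were present throughout, with summed CPM of 6 genes from 2878 to 3284 in Fpr2KO and from 3038 to 3152 in WT. In a bulk tissue, fewer cells of a type and less RNA per cell cannot be told apart. Pancreatic acinar transcripts stood out in Fpr2KO replicates 1 and 2, with 481 and 274 summed CPM of 8 genes, against 39.5 and 34.8 in Fpr2KO replicates 3 and 4 and 23.7 to 48.9 in WT. Without those 2 libraries the median of the class I presentation genes was 0.0287 on the log2 scale and 0 of them passed.

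The promoters of class I genes carry short elements known to bind NF-kB, interferon regulatory factors, the RFX, CREB and NF-Y complex that recruits Nlrc5, and others, and the heavy chain and light chain genes share several of these. The stretches before the RefSeq start sites of H2-K1, H2-D1 and B2m, and the stretch between the starts of Psmb9 and Tap1, are shown because they set out what these genes have in common on the sequence level. Sequences are from RefSeq on GRCm38.p6, 5′ to 3′, and capitals mark matches on either strand to the NF-kB consensus, to the CCAAT box (CCAAT, or ATTGG on the other strand), to the X2-like element TGACGC or to the interferon response element, which reads GAAA, any NN and GAAA.
H2-K1 (chr17:34000348-34000547, minus strand): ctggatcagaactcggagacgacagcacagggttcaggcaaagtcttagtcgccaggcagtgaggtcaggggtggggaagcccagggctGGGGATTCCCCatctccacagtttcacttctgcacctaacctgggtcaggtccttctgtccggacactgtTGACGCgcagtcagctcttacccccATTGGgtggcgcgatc
H2-D1 (chr17:35262894-35263093, plus strand): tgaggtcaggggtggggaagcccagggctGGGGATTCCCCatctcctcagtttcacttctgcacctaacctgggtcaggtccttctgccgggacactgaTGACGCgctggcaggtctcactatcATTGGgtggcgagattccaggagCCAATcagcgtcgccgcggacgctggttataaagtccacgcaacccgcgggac
B2m (chr2:122147487-122147686, plus strand): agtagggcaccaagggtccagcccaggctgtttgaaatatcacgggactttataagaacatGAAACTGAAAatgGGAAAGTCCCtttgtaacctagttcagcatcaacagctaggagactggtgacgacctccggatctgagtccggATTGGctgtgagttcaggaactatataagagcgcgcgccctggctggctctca
Psmb9 to Tap1 (chr17:34187331-34187555, plus strand): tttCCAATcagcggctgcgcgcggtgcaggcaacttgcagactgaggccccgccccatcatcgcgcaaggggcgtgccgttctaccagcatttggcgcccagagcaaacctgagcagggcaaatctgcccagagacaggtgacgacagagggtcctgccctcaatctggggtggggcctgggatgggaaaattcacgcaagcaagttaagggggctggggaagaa

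H2-K1 and H2-D1 held the same 3 kinds of element in the same order, NF-kB, X2-like and CCAAT. Their NF-kB element matched on both strands, in the same bases, and H2-D1 had a further CCAAT box closer to its start. The X2-like element began 41 bases before the RefSeq start of H2-K1 and 101 bases before that of H2-D1. B2m held an interferon response element, an NF-kB match and a CCAAT box, none overlapping. Tap1 and Psmb9 are read in opposite directions from RefSeq starts with 225 bases between them, with a single CCAAT box next to the Psmb9 start. A window of 250 bases before the start was available for 8 of the 10 genes, and for 27025 genes in all. The CCAAT box was found in 6 of the 8 windows (34.3% of all windows), the NF-kB consensus in 3 (7.09%), the X2-like element in 2 (6.13%) and the interferon response element in 1 (3.05%). A gamma activated site (TTC, any NNN and GAA) was found in 1, that of Psmb8 (7.05%). These counts are not independent. The windows of Tap1 and Psmb9 share a CCAAT box, which was counted for each. Both X2-like matches were in H2-K1 and H2-D1, which are close copies, and the NF-kB matches were in these 2 genes and B2m. A match is a description of letters and says nothing of binding in these spleens. Nor does the lack of a match mean the lack of an element, since elements that differ from these letters were not marked or counted.

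The heavy chains form the peptide groove and are the class I molecules that T cells read. H2-K1 (ENSMUSG00000061232, chromosome 17, 33996017 to 34000347, minus strand, GRCm38) had 1871, 2338, 2087 and 2275 CPM in the Fpr2KO libraries, against 2008, 1983 and 2624 CPM in the WT libraries. The lowest value was in an Fpr2KO library and the highest in a WT library. The means were 2143 ± 210 CPM in Fpr2KO (SD, n = 4) and 2205 ± 363 CPM in WT (n = 3), a log2 fold change of -0.04 with a standard error (SE) of 0.12 and a 95% interval of -0.31 to 0.23 (edgeR adjusted p = 1.0). H2-D1 (ENSMUSG00000073411, chromosome 17, 35262730 to 35267499, plus strand) had 1698, 1886, 1760 and 1984 CPM in Fpr2KO, against 1682, 1809 and 2187 CPM in WT. All 4 Fpr2KO values lay within the WT range. The log2 fold change was -0.05 (SE 0.11, interval -0.28 to 0.19, edgeR adjusted p = 1.0). These 2 genes are close copies, and reads from shared stretches could have been split between copies or left uncounted. Of all distinct stretches of 50 bases in their annotated transcripts, 9.63% for H2-K1 and 12.8% for H2-D1 also occurred in a transcript of another gene, so their levels are less certain than that of B2m, for which none did.

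B2m is the shared light chain without which the heavy chains do not reach the cell surface. B2m (ENSMUSG00000060802, chromosome 2, 122147686 to 122153083, plus strand) was one of the most abundant transcripts, rank 18 by mean CPM of 16089 tested genes, with H2-K1 at rank 29 and H2-D1 at rank 39. It had 2655, 3120, 2711 and 2813 CPM in Fpr2KO, against 2597, 2163 and 3104 CPM in WT. The means were 2825 ± 208 CPM in Fpr2KO (SD, n = 4) and 2621 ± 471 CPM in WT (n = 3). The Fpr2KO values all lay above 2 of the 3 WT values, and WT replicate 3 lay near the top of the Fpr2KO range. Its log2 fold change of 0.11 (SE 0.12, interval -0.16 to 0.38, edgeR adjusted p = 1.0) was the highest of the 10 and smaller than the spread between libraries. Leaving out WT replicate 2 gave -0.0125, and leaving out WT replicate 3 gave 0.248.

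The transporter subunits Tap1 and Tap2 and the loading chaperone Tapbp lie in the MHC on chromosome 17. Tap1 (ENSMUSG00000037321, 34187553 to 34197225, plus strand) had 174, 207, 178 and 209 CPM in Fpr2KO, against 187, 176 and 228 CPM in WT. Tap2 (ENSMUSG00000024339, 34203527 to 34216321, plus strand) had 110, 131, 126 and 132 CPM in Fpr2KO, against 112, 106 and 147 CPM in WT. Both genes were lowest in Fpr2KO replicate 1 among the Fpr2KO libraries, and both were highest of all in WT replicate 3. The log2 fold changes were -0.04 (SE 0.11, interval -0.29 to 0.21) for Tap1 and 0.03 (SE 0.12, interval -0.24 to 0.31) for Tap2, each with an edgeR adjusted p of 1.0. Tapbp (ENSMUSG00000024308, 33915899 to 33929292, plus strand) had 233, 230, 228 and 261 CPM in Fpr2KO, against 253, 217 and 280 CPM in WT. Its log2 fold change of -0.07 (SE 0.10, interval -0.30 to 0.15, edgeR adjusted p = 1.0) was the lowest of the 10. Reads of Tap2 and Tapbp are less certain, since part of their exons overlaps other genes. The strand of those genes was not compared, and nothing in the labels says whether the counting used strand. Of their exon bases, 18.5% of those of Tap2 overlap Gm15821 or Gm20496, and 29.0% of those of Tapbp overlap Gm19412 or Zbtb22.

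Psmb8, Psmb9 and Psmb10 encode the catalytic subunits that replace Psmb5, Psmb6 and Psmb7 when the immunoproteasome is assembled. Psmb8 (ENSMUSG00000024338, chromosome 17, 34197721 to 34201454, plus strand) had 258, 313, 290 and 320 CPM in Fpr2KO, against 232, 256 and 358 CPM in WT. Psmb9 (ENSMUSG00000096727, chromosome 17, 34181987 to 34187764, minus strand) had 146, 188, 161 and 190 CPM in Fpr2KO, against 133, 163 and 207 CPM in WT. For both, WT held the lowest and the highest value and all Fpr2KO values lay between them. Psmb10 (ENSMUSG00000031897, chromosome 8, 105935735 to 105938444, minus strand) had 111, 131, 127 and 143 CPM in Fpr2KO, against 120, 118 and 144 CPM in WT. The log2 fold changes were 0.06 (SE 0.15, interval -0.27 to 0.40) for Psmb8, 0.03 (SE 0.15, interval -0.32 to 0.38) for Psmb9 and 0.01 (SE 0.11, interval -0.23 to 0.25) for Psmb10, none past the test (edgeR adjusted p = 1.0 each). Psmb8 depended most on a single library: without WT replicate 3 its log2 fold change was 0.274 with an unadjusted p of 0.037, the sole value under 0.05 for any of the 10 genes in any setting tried, and it did not pass over all genes (edgeR adjusted p = 0.745). In GENCODE M21 the annotated Psmb9 and Tap1 genes reach past the RefSeq starts and overlap each other (5.79% of the exon bases of Psmb9), and 14.7% of those of Psmb8 overlap Gm20496.

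Nlrc5 (ENSMUSG00000074151, chromosome 8, 94434356 to 94527272, plus strand), the transactivator, had 85.7, 119, 80.6 and 96.3 CPM in Fpr2KO, against 96.1, 85.9 and 103 CPM in WT. The lowest and the highest value were both in Fpr2KO libraries, and the WT values lay between them. The means were 95.4 ± 17 CPM in Fpr2KO (SD, n = 4) and 95.1 ± 8.75 CPM in WT (n = 3), a log2 fold change of 0.004 (SE 0.13, interval -0.30 to 0.30, edgeR adjusted p = 1.0). It was the one gene of the 10 with a wider relative spread in Fpr2KO, a coefficient of variation of 17.8% against 9.20% in WT. For the other 9 this figure ran from 6.39% to 12.5% in Fpr2KO and from 11.5% to 23.7% in WT.

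**Figure D1:**
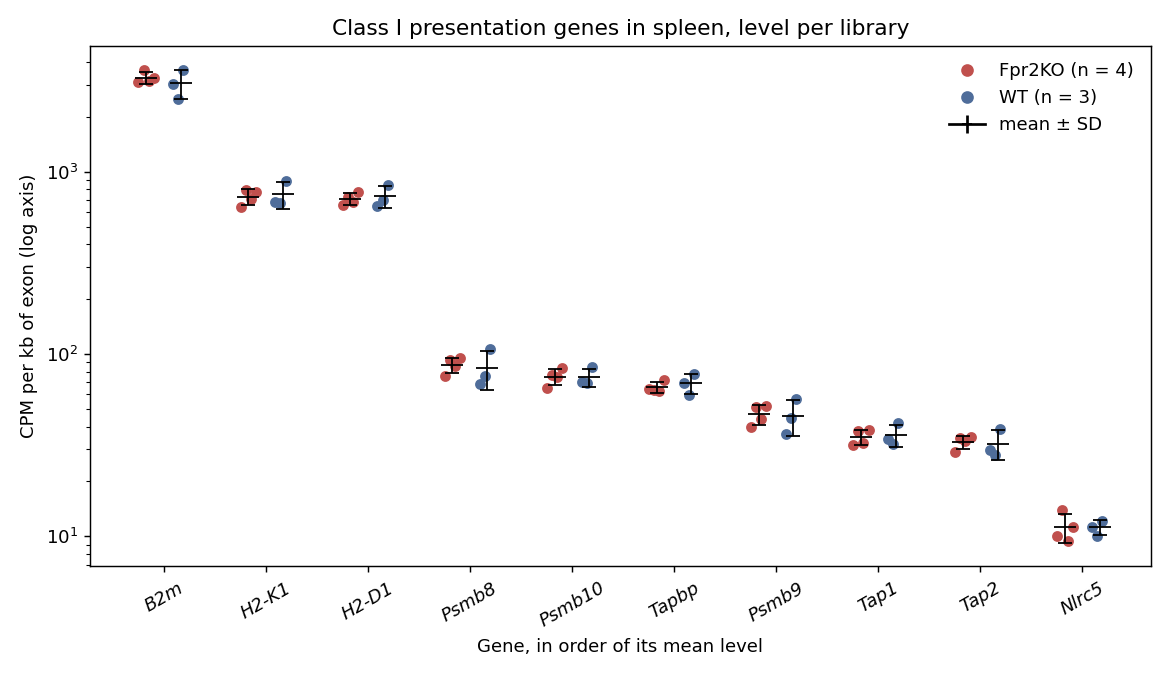
Level of each class I presentation gene in CPM per kilobase of exon (log axis), with a point per library, Fpr2KO left and WT right, and black bars for the mean and SD (n = 4 and n = 3). B2m stands highest and Nlrc5 lowest, and the points of both groups overlap for every gene.

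Levels can be compared between genes after division by exon length, here in CPM per kilobase of annotated exon. On that scale B2m had 3280 ± 241 in Fpr2KO (SD, n = 4) and 3050 ± 548 in WT (n = 3), while H2-K1 had 729 ± 71.6 in Fpr2KO and 750.0 ± 124 in WT. H2-D1 was level with H2-K1, since their order held in 5 of 7 libraries with a mean log2 difference of levels of 0.03 ± 0.07 (SD, n = 7). Next came Psmb8 at 87.4 ± 8.34 in Fpr2KO and 83.5 ± 19.8 in WT, followed by Psmb10, Tapbp, Psmb9, Tap1 and Tap2. Nlrc5 was last at 11.2 ± 2.00 in Fpr2KO and 11.2 ± 1.03 in WT. The order of neighbours held in all 7 libraries except for H2-K1 over H2-D1, Psmb8 over Psmb10 (6 of 7) and Tap1 over Tap2 (6 of 7). The steepest steps were those from H2-D1 to Psmb8, a log2 difference of levels of 3.08 ± 0.11, and from B2m to H2-K1, 2.11 ± 0.12 (SD, n = 7). Exon length sums all annotated isoforms, so a gene with long or rarely used isoforms is understated on this scale.

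**Figure D2:**
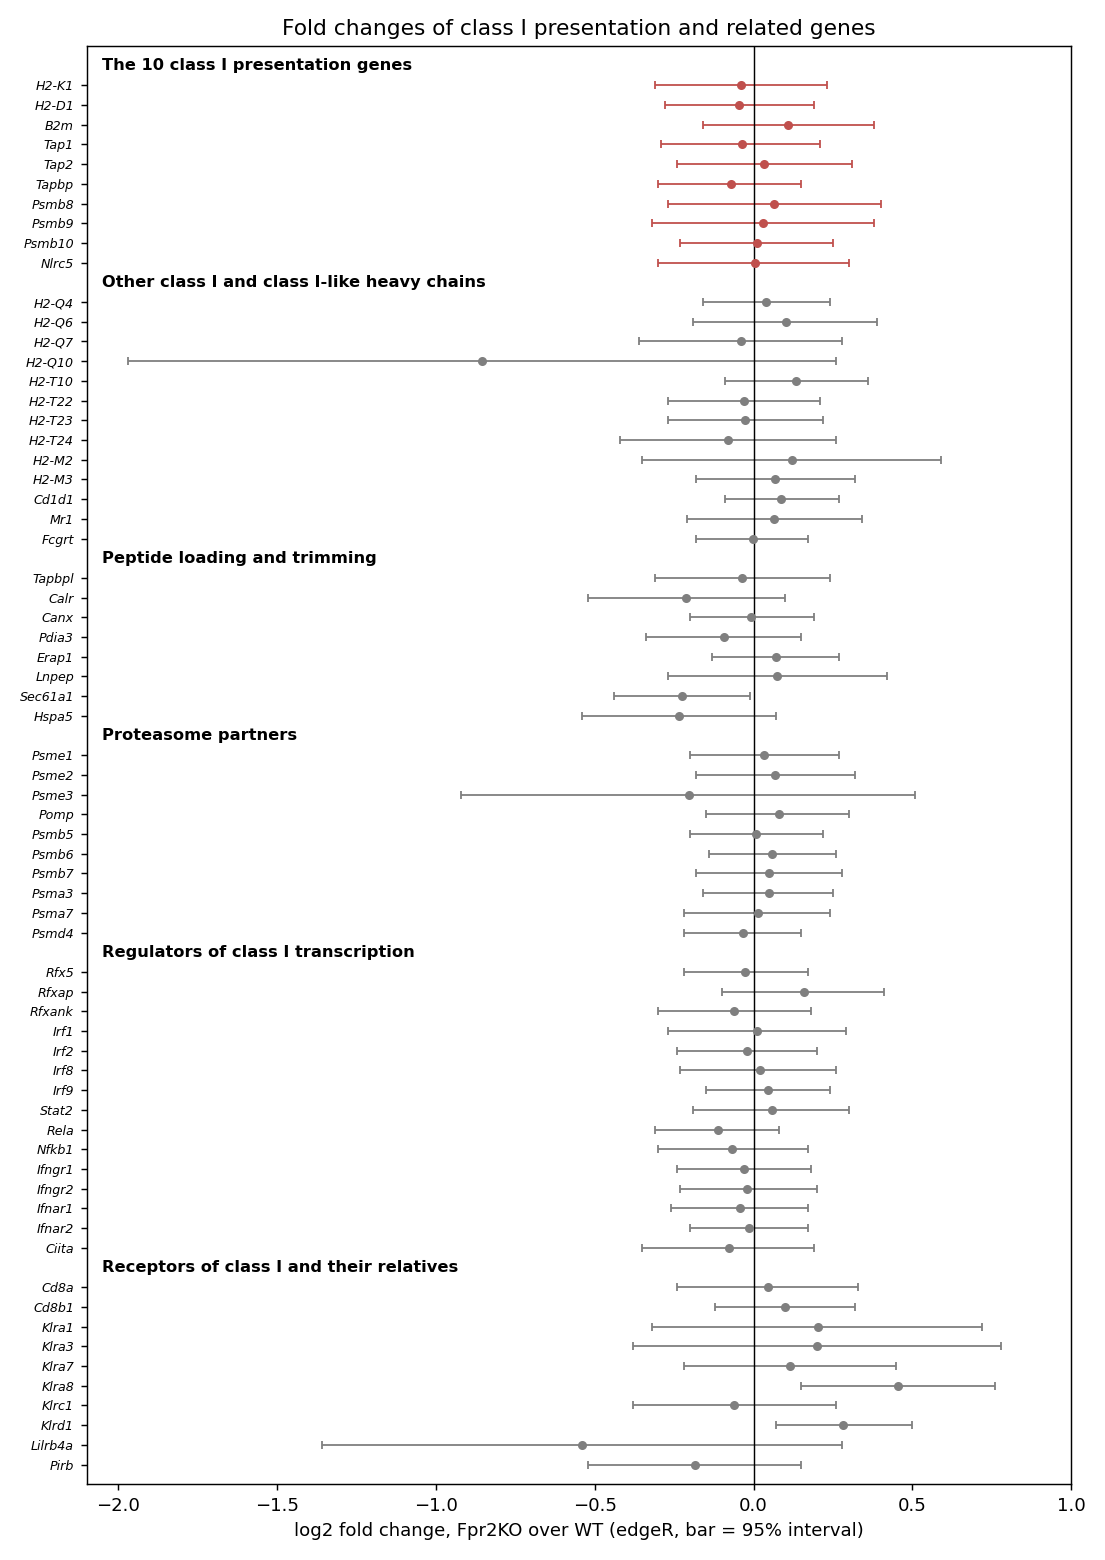
Fitted log2 fold changes, Fpr2KO over WT, with 95% intervals from edgeR, for the 10 class I presentation genes (red) and for most of the related genes (grey), without H2-Q2 and Cd1d2, which had about 1 CPM. All 10 red intervals cross 0, and those of 3 grey genes do not: Sec61a1, Klra8 and Klrd1.

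The genes moved together from library to library more than between genotypes. After centring each gene on its mean over the 7 libraries, the mean log2 CPM of the 10 genes was -0.14, 0.11, -0.06 and 0.11 in Fpr2KO replicates 1 to 4, against -0.11, -0.14 and 0.24 in WT replicates 1 to 3. In WT replicate 3 all 10 genes lay above their own mean and 8 of 10 were at their highest, while B2m and Nlrc5 were highest in Fpr2KO replicate 2. In Fpr2KO replicate 1 and in WT replicate 2, 0 of 10 lay above their own mean. The group means of this value were 0.01 ± 0.13 in Fpr2KO (SD, n = 4) and -0.01 ± 0.21 in WT (n = 3). As a share of all reads, the 10 genes took 0.825% ± 0.083 in Fpr2KO and 0.770% ± 0.136 in WT, a difference within the spread of the libraries. The pattern across libraries was in part not particular to the 10 genes. Over all tested genes, deviations of log2 CPM from the group mean in WT replicate 3 correlated at 0.436 with Fpr2KO replicate 2. With Fpr2KO replicate 1 the value was -0.44. For WT replicate 2 the values were 0.436 with Fpr2KO replicate 1 and -0.434 with Fpr2KO replicate 2. Fpr2KO replicate 4 stood at 0.0593 with WT replicate 3 and -0.0346 with WT replicate 2.

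**Figure D3:**
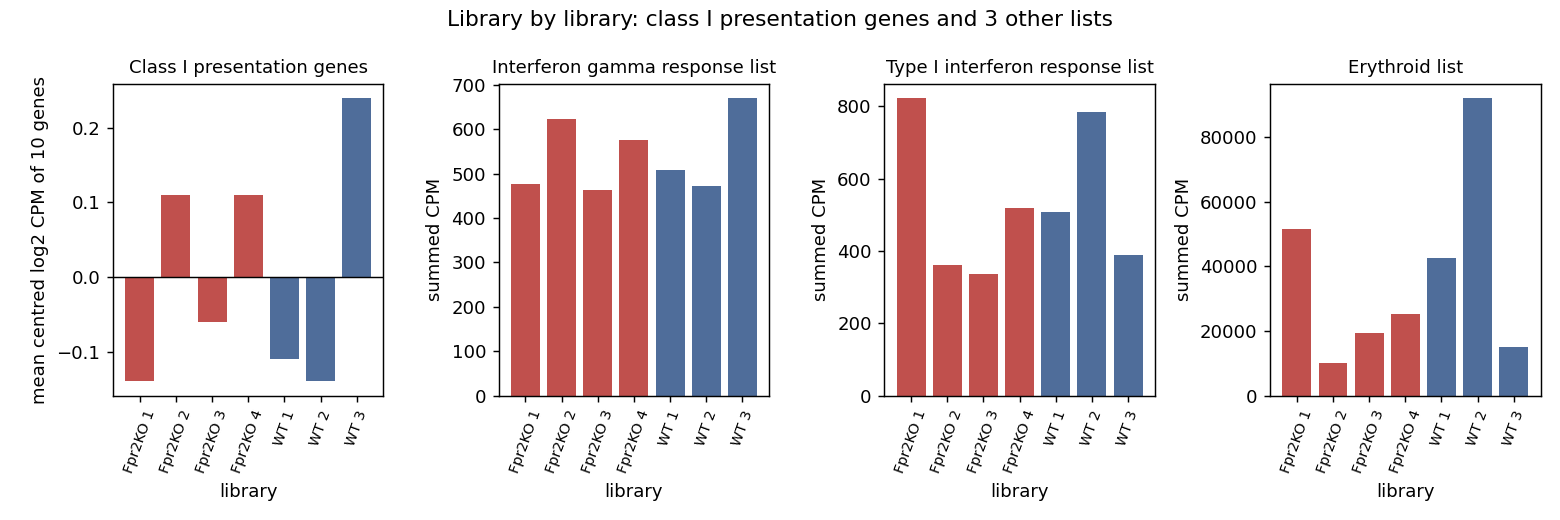
Mean centred log2 CPM of the 10 class I presentation genes in each library (left), beside the summed CPM of 9 interferon gamma response genes, 10 type I interferon response genes and 8 erythroid genes, with Fpr2KO libraries in red and WT libraries in blue. The 3 libraries with positive bars on the left are Fpr2KO replicates 2 and 4 and WT replicate 3, which also have the 3 highest sums of the interferon gamma list.

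Some other transcript groups varied along with the 10 genes, and others did not. Lists of B cell, T cell, NK cell, neutrophil, endothelial and pancreatic acinar genes did not set Fpr2KO replicates 2 and 4 and WT replicate 3 apart. Their 3 highest and their 3 lowest sums fell in other sets of libraries. With many lists looked at, a match in so few libraries can arise by chance. Genes induced by interferon gamma, such as the guanylate-binding protein genes, had summed CPM of 476, 622, 463 and 575 in Fpr2KO replicates 1 to 4, against 509, 473 and 669 in WT replicates 1 to 3. The 3 libraries in which the class I presentation genes were above average were the 3 with the highest sums. The same 3 had the highest sums of 6 dendritic cell markers, which were 223, 286, 226 and 271 CPM in Fpr2KO, against 241, 198 and 265 CPM in WT. They also had the lowest sums of 5 red pulp macrophage markers, which were 3591, 2740, 3649 and 3036 CPM in Fpr2KO, against 3487, 3095 and 2678 CPM in WT. Type I interferon response genes followed another order, with 822, 360, 337 and 518 summed CPM in Fpr2KO, against 508, 785 and 389 in WT, and were highest in the 2 libraries in which 0 of the 10 genes lay above their mean. Erythroid transcripts summed to 51527, 10040, 19252 and 25286 CPM in Fpr2KO, against 42735, 92034 and 14953 CPM in WT. The 3 libraries with the highest erythroid sums, Fpr2KO replicate 1 and WT replicates 1 and 2, had the 3 lowest values for the class I presentation genes. In edgeR's test 0 of 9 interferon gamma genes and 0 of 8 erythroid genes were called, and 0 of either list had an unadjusted p under 0.05. The part of these groups in the levels of the 10 genes was not tested.

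Candidates for a like pattern were the 10888 other genes whose mean reached 5 CPM after leaving out pseudogenes, immunoglobulin and T cell receptor segments, and genes with only a Gm, Rik or accession name. The 5 whose centred log2 CPM came closest to the mean of the 10 over the 7 libraries were Ctsh, Sema4d, Pgm3, Erp44 and Marveld1. Closeness was measured as a root mean square difference, which was 0.042 log2 units for Ctsh, the gene of a lysosomal protease, 0.046 for Sema4d, a semaphorin gene, and 0.049 to 0.051 for the others. H2-K1 at 0.034 and Tap1 at 0.035 lay closest among the 10 themselves, and Nlrc5 at 0.128 lay farthest. Each of the 10 is part of that mean, which lowers its distance, so these values cannot be set against those of the candidates. The median over the candidates was 0.196. A gene with no variation at all would have had 0.14. The likeness rests on 7 libraries and is a description.

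Ratios between genes counted in the same library do not depend on how libraries are scaled, and 6 were compared by an exact two-sided permutation test over the 35 ways to assign the libraries, for which 0.0286 is the smallest possible p. The ratio of the immunoproteasome subunit to the one it replaces was 3.30 ± 0.400 in Fpr2KO (SD, n = 4) and 3.16 ± 0.573 in WT (n = 3) for Psmb8 over Psmb5 (exact permutation p = 0.657). It was 1.69 ± 0.247 in Fpr2KO and 1.71 ± 0.259 in WT for Psmb9 over Psmb6 (exact permutation p = 0.943), and 0.870 ± 0.132 in Fpr2KO and 0.893 ± 0.115 in WT for Psmb10 over Psmb7 (exact permutation p = 0.800). The replaced subunits themselves had log2 fold changes of 0.01 (Psmb5), 0.06 (Psmb6) and 0.05 (Psmb7). All 3 ratios were lowest of the Fpr2KO libraries in replicate 1, at 2.86, 1.40 and 0.701.

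Between the heavy chains, H2-K1 over H2-D1 was 1.17 ± 0.0584 in Fpr2KO and 1.16 ± 0.0586 in WT (exact permutation p = 0.971). Heavy over light chain, H2-K1 over B2m, was 0.705, 0.749, 0.770 and 0.809 in Fpr2KO, against 0.773, 0.917 and 0.845 in WT. The means were 0.758 ± 0.0433 in Fpr2KO (SD, n = 4) and 0.845 ± 0.0717 in WT (n = 3). The groups overlapped, and the difference of -0.16 on the log2 scale did not pass (exact permutation p = 0.114, or 0.686 adjusted over the 6 ratios). It was the widest of the 6 on that scale over all 7 libraries, but it was -0.09 without WT replicate 2, when Psmb10 over Psmb7 stood at -0.15, and -0.15 without WT replicate 3, when Psmb8 over Psmb5 stood at 0.21. Tap1 over Tap2 was 1.54 ± 0.0841 in Fpr2KO and 1.63 ± 0.0708 in WT (exact permutation p = 0.286). No ratio passed, with adjusted values from 0.686 to 0.971. A single ratio could not have passed alone, since even the smallest possible p of 0.0286 is too large after adjustment over 6 ratios. The lack of a call therefore does not show that a ratio was the same in both genotypes.

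**Figure D4:**
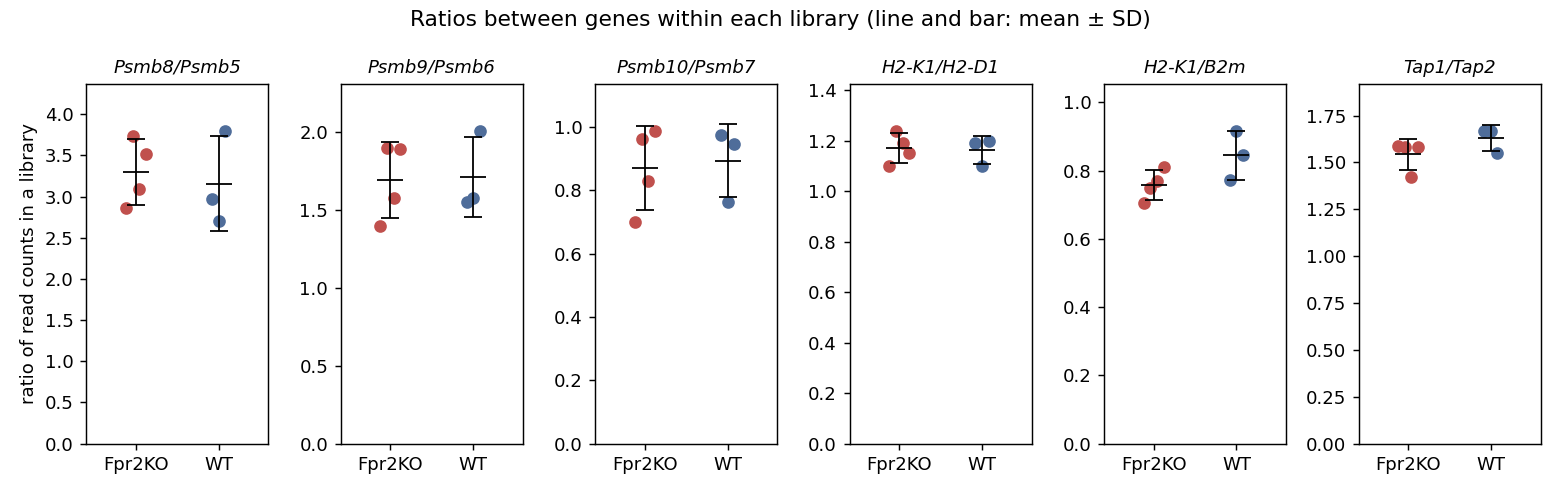
Ratio of read counts between 2 genes in the same library for 6 pairs, with a point per library, Fpr2KO left and WT right, and lines for the mean and SD (n = 4 and n = 3). The groups overlap in all 6 panels, and the means of H2-K1 over B2m are 0.758 in Fpr2KO and 0.845 in WT.

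The rest of the pathway gave a similar picture. A set of 61 related genes held other class I heavy chains, loading and trimming factors, proteasome partners, regulators and receptors, and 59 of them were tested. With edgeR 0 of 59 passed and 3 had an unadjusted p under 0.05, beside 4.98% of all tested genes, and DESeq2 called 0. Of the 59, 31 had a positive and 28 a negative fitted value.

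Of the other class I and class I-like heavy chains 15 of 17 were tested, with 8 positive and 7 negative fitted values, a median log2 fold change of 0.038 and 0 of 15 called. H2-T23, the gene of the Qa-1 molecule that presents to NK cell receptors, had 358 ± 27.0 CPM in Fpr2KO (SD, n = 4) and 365 ± 54.0 CPM in WT (n = 3), a log2 fold change of -0.03 (SE 0.11). The 3 with the smallest p were H2-Q10 (log2 fold change -0.86, SE 0.46), H2-Q2 (-0.78, SE 0.56) and H2-T10 (0.14, SE 0.10), and none passed. H2-Q10, known as a secreted class I molecule of the liver, had 14.9, 8.53, 19.5 and 17.9 CPM in Fpr2KO, against 39.9, 30.5 and 12.2 CPM in WT. Both other WT libraries lay above all Fpr2KO libraries, but WT replicate 3 lay below 3 of the 4. H2-Q1 had at most 3 reads in any library and H2-T3 had 0 reads in all 7, so neither was tested.

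Loading and trimming factors had 6 of 8 negative fitted values and a median log2 fold change of -0.065, with 0 of 8 called. Sec61a1, a subunit of the endoplasmic reticulum translocon, had 150.0, 163, 155 and 160 CPM in Fpr2KO, against 190, 157 and 204 CPM in WT. Its log2 fold change was -0.22 (SE 0.10, unadjusted p = 0.0449, edgeR adjusted p = 0.988). The chaperone genes Hspa5 and Calr, which also serve general protein folding, stood at log2 fold changes of -0.24 for Hspa5 (SE 0.14) and -0.21 for Calr (SE 0.14), and neither passed. Proteasome partners had 8 of 10 positive fitted values with a median of 0.041 and 0 of 10 called. Psme1 and Psme2, the subunits of an interferon-induced proteasome activator, stood at 0.03 (SE 0.10) and 0.07 (SE 0.11). The smallest p of that list belonged to Pomp, a proteasome assembly factor gene, Psmb6 and Psme3, none under 0.05. Their log2 fold changes were 0.08 for Pomp, 0.06 for Psmb6 and -0.20 for Psme3 (SE 0.30).

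Regulators of class I transcription had 6 positive and 10 negative fitted values, a median of -0.02 and 0 of 16 called. Rfx5, Rfxap and Rfxank, whose products form the RFX complex that recruits Nlrc5, had log2 fold changes of -0.03, 0.16 and -0.06. Irf1, an interferon-induced transcription factor, had 167 ± 23.9 CPM in Fpr2KO (SD, n = 4) and 166 ± 18.1 CPM in WT (n = 3). The smallest p of the list were those of Rfxap, Rela and Nfkb1, none under 0.05. The log2 fold change was -0.11 for Rela and -0.07 for Nfkb1.

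Receptors of class I molecules, listed together with relatives of such receptors, had 7 of 10 positive fitted values, a median of 0.107 and 0 of 10 called. Klra8, an activating NK cell receptor gene whose product is known for binding a cytomegalovirus protein and not host class I, had 16.7, 13.7, 18.5 and 15.6 CPM in Fpr2KO, against 13.0, 11.8 and 10.6 CPM in WT (log2 fold change 0.45, SE 0.14, edgeR adjusted p = 0.753). Klrd1, the shared chain of the receptors for Qa-1, had 39.9, 45.7, 41.2 and 36.6 CPM in Fpr2KO, against 32.4, 35.3 and 33.1 CPM in WT (log2 fold change 0.28, SE 0.10, edgeR adjusted p = 0.873). For both, every Fpr2KO value lay above every WT value, as for 2.73% of all tested genes, and neither passed. The summed CPM of 6 NK cell markers was likewise 165 to 184 in Fpr2KO and 147 to 155 in WT, and its part in these values was not tested. Klrc1, of the same list, had 18.2 ± 2.98 CPM in Fpr2KO (SD, n = 4) and 19.0 ± 2.10 CPM in WT (n = 3). Its log2 fold change was -0.06 (SE 0.14). Klra1, Klra3 and Klra7 stood at 0.20 (SE 0.23), 0.20 (SE 0.26) and 0.11 (SE 0.15). The groups overlapped for each of these genes. The T cell co-receptor genes Cd8a and Cd8b1 stood at 0.05 (SE 0.13) for Cd8a and 0.10 (SE 0.10) for Cd8b1 on the same scale. Lilrb4a, an inhibitory receptor gene of myeloid cells that is not known as a class I receptor, had the lowest fitted value of the list at -0.54 (SE 0.34), with 124 CPM in WT replicate 1 against 48.3 to 59.0 CPM in the other WT libraries and 44.4 to 60.5 CPM in Fpr2KO.

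Of the 10 class I presentation genes, 7 lie on chromosome 17, the chromosome of Fpr2, between 16.0 and 17.4 Mb from it. Their log2 fold changes ran from -0.07 to 0.06, and those of B2m, Psmb10 and Nlrc5 on chromosomes 2 and 8 from 0.004 to 0.11. Neutrophils are known to express Fpr2, and their markers had summed CPM of 9 genes from 1317 to 2640 in Fpr2KO and from 3318 to 4452 in WT. In edgeR's test 0 of 9 were called and 6 of 9 had an unadjusted p under 0.05, beside 4.98% of all tested genes. The sums did not overlap between the genotypes, while those of the class I presentation genes did. Among single tested genes, 3.18% did not overlap with Fpr2KO lower. The part of the neutrophil transcripts in the levels of the 10 genes was not tested.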

How the data were processed

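RNA-seq of spleen was analysed in 7 libraries. The authors deposited raw read counts per Ensembl gene in a single table. Per the submitters' processing notes, FastQC 0.10.1 and HTSeq 0.10.0 were used, and the builds mm10 and GRCm38 are named. Not given in the sources used here are the aligner, the annotation release, the strand setting and the handling of reads with several matches. Per the labels' protocols, an RNeasy kit served for RNA and a NEBNext Ultra II kit for libraries.

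Symbols, positions and exon lengths came from GENCODE M21 (GRCm38), matched on gene ID. Of 55414 IDs, 52081 matched and 3333 did not, so the counting used another release. All rows named a gene. Groups were compared with edgeR 4.0.16 (limma 3.58.1) in R 4.3.3, robust quasi-likelihood F test, TMM scaling and filterByExpr defaults, which kept 16089 genes. Intervals (95%) use the SE and total degrees of freedom of that test. CPM uses TMM-scaled library sizes, and log2 CPM a prior count of 2. DESeq2 1.42.0, RLE scaling, other filters, each library left out, a replicate block and library sizes that leave out mitochondrial, immunoglobulin and haemoglobin genes were alternatives. Leaving out both Fpr2KO replicates 1 and 2 was chosen after seeing the data. Intervals cover these libraries only.

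Simulated counts of 15824 genes were used to test the edgeR step for Fpr2KO against WT, with 50 genes altered at each size. Recovery was 26.0% at 1.5-fold, 86.0% at 2-fold, 100% at 3-fold and 96.0% at 4-fold, and 12 of 166 calls were false.

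The members, lists and naming rule were chosen with earlier results of these data known. The rule named Fpr2, the 10 members, the partners in the ratios, and from each related list every gene with an unadjusted p under 0.05 and the 3 with the smallest p. Other related genes were chosen after their values were seen: H2-T23, H2-Q1, H2-T3, Psme1, Psme2, Rfx5, Rfxank, Irf1, Klra1, Klra3, Klra7, Klrc1, Cd8a and Cd8b1. The values of 1 other gene of these lists are not reported here.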

Additional observations from a re-analysis of the deposited data

Results flagged for a closer look

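Among 34 values tested in the 4 Fpr2KO libraries, 2 had a library far from the other 3, where chance flags about 1 in 20. Tapbp had 261 CPM in Fpr2KO replicate 4, against 228 to 233 CPM in the other Fpr2KO libraries, and that value lay within the WT range of 217 to 280 CPM. The ratio of Tap1 to Tap2 was 1.42 in Fpr2KO replicate 3, against 1.58 to 1.59 in the other Fpr2KO libraries.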

How the results depend on the processing

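The count of 0 of 10 class I presentation genes, and of 0 of 59 related genes, held under all 14 alternatives. The median log2 fold change of the 10 genes had its lowest value, -0.0598, without WT replicate 2 and its highest, 0.107, without WT replicate 3. Single log2 fold changes ran from -0.16 to 0.27, each of the 10 changed sign in at least 1 alternative, and the lowest adjusted p was 0.745. The number of genes called among all tested was 60 with DESeq2, 21 with no low count filter, and 5 to 15 with each library left out (15 without WT replicate 3 and 10 without WT replicate 1). With the replicate number as a block it was 2, and the median of the 10 genes was -0.0307. Same-numbered libraries did not deviate together, with correlations of 0.0778, -0.434 and -0.0733, nor did every library correlate best with its own number. Deviations were taken from the mean of each group, which ties the libraries of a group to each other. These correlations therefore cannot settle whether equal numbers share anything, and the labels do not say. None of the 6 ratios passed in any of 9 alternatives. With every library kept, a single ratio could not have passed alone after adjustment over the 6. Where a library was left out, no ratio could have passed. Too few ways to assign the libraries then remain for an exact permutation p under 0.05. The log2 difference of H2-K1 over B2m was -0.22 at its lowest, without WT replicate 1, and -0.09 at its highest, without WT replicate 2. In the simulation, power for a 1.5-fold change was 26.0%. Its altered genes were drawn at random from genes above 5 CPM, most of them less abundant than the 10. It gave 166 calls, against 6 in the data, so its cutoff at an adjusted p of 0.05 was looser. The 26.0% is therefore not the power for the 10 genes in this comparison. Small differences in single genes may still go uncalled.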
